A study of Mus musculus with 4 samples.

Results

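The glucocorticoid-responsive genes examined here are 10 of the 32285 genes in the expression matrices: the glucocorticoid receptor gene Nr3c1 and 9 genes known to respond to glucocorticoid hormones, Fkbp5, Klf9, Zbtb16, Tsc22d3, Sgk1, Ddit4, Errfi1, Pdk4 and Glul. They were chosen by symbol, with earlier results of these same data in view, so all values for them are descriptions and carry no test. Each symbol matched 1 gene identifier, and all 10 genes had UMIs (unique molecular identifiers, 1 per captured transcript) in all 4 libraries. The cells were single cells from 2 leg muscles, tibialis anterior (TA) and gastrocnemius (GTN), of males aged 2 months. All mice were S100GFP-tg, a transgene with GFP under the S100B promoter that makes Schwann cells fluoresce, and they were either wild type (WT) or lacked Sod1 (Sod1-/-, labelled Sod1KO). Muscles of 4 mice were pooled per genotype, live cells were sorted into GFP+ and GFP- fractions, and each fraction gave 1 library. With 1 library per group there is no replicate check, a difference between genotypes cannot be told apart from a difference between pools or preparations, and no p-value can be given.

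Glucocorticoids such as corticosterone cross the cell membrane and bind the glucocorticoid receptor, which waits in the cytoplasm in a complex with HSP90 and its partner proteins. The bound receptor moves to the nucleus, binds DNA at glucocorticoid response elements and switches nearby genes on or off. In muscle the hormone is known for slowing protein synthesis, shifting fuel use toward fat and amino acids and restraining inflammation. No glucocorticoid was given in these libraries and no hormone level was measured in them, so the responsiveness of the genes is background and could not be checked here.

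The promoter windows are shown because the 4 genes with the most widespread lower levels in the Sod1KO libraries are Klf9, Ddit4, Tsc22d3 and Sgk1. Sequences come from RefSeq on GRCm38.p6, the patch of the mm10 build that the submitters' processing notes name. The windows reach from 250 bases before to 50 bases after a transcript start, and 8 of the 10 genes had 1 or more of them, 16 windows in all. The palindromic element searched was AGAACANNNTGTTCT, which reads the same on both strands, and the single hexamer AGAACA was searched on both strands, a full element counting as a hexamer match too. The full element was in 3 of 32851 windows (0.00913%), and 1 of the 3 belongs to Sgk1, at chr10:21993701-21993715, where it begins at −189 from the transcript start of 1 of the 6 Sgk1 windows. The hexamer was in 6233 windows (19.0%), and in 4 of the 16 windows of these genes. These were 3 of the 6 windows of Sgk1 and 1 of the 3 windows of Tsc22d3. The windows of Klf9 and Ddit4 held neither, which says only that these letters are not in them. The 250 bases before the start follow, 5′ to 3′ on the gene's strand, with the full element of Sgk1 and the hexamer of Tsc22d3 in capitals (another hexamer in the Sgk1 window is left in lower case), from chr10:21993640-21993889 (+ strand) for Sgk1, chrX:140600523-140600772 (− strand) for Tsc22d3, chr19:23140976-23141225 (+ strand) for Klf9 and chr10:59951771-59952020 (− strand) for Ddit4.
Sgk1: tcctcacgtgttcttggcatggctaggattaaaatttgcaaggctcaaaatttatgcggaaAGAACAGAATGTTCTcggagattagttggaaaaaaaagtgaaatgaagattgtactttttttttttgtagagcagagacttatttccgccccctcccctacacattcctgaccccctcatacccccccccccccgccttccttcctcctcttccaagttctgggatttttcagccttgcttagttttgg
Tsc22d3: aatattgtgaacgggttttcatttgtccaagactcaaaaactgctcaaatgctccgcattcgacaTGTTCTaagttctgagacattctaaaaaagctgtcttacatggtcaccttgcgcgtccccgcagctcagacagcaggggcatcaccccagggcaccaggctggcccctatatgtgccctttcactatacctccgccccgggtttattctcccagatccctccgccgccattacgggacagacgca
Klf9: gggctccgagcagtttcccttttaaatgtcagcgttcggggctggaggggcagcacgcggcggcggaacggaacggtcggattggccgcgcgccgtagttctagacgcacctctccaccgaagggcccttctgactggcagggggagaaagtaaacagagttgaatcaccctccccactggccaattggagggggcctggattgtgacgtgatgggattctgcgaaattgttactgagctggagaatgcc
Ddit4: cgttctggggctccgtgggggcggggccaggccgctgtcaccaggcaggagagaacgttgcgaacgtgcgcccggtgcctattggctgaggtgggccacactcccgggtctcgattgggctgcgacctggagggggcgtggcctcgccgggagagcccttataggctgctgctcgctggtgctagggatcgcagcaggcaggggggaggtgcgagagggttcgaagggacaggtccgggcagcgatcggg

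The deposited matrices hold 2052 barcodes for WT GFP-, the smallest library, to 7267 for Sod1KO GFP+, and 21959719 to 105954116 UMIs per library. After filtering, 1638 to 5925 cells per library were left, with medians of 8023.5 UMIs per cell in WT GFP- and 12293 to 14658 in the other 3, and any 2 libraries shared 0 to 10 cell barcodes. Clusters were named from fixed marker lists as mSC-like (myelinating Schwann cells), tSC-like (terminal or other nonmyelinating Schwann cells) and other classes. Unnamed clusters keep their number, among them cluster 8 (10 mSC and 9 perineurial markers) and cluster 5 (7 pericyte and 8 endothelial markers). Sod1 itself was at 91.0 CPM (UMIs scaled to 1e+06 per class) in WT GFP+ and 98.3 in Sod1KO GFP+, and 3′ tags do not check a deletion elsewhere in the gene, so directions are those of the libraries as labelled.

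Across the muscle, Klf9, Ddit4, Tsc22d3 and Sgk1 were lower in the library labelled Sod1KO in nearly every class with enough UMIs to count them. The receptor Nr3c1 and the metabolic genes Pdk4 and Glul differed little or in both directions. A gene was counted in a comparison if it had 100 or more UMIs over both libraries, and called lower or higher at 1.5-fold or more. In the GFP+ sort, 14 classes or clusters had 50 or more cells in both libraries. Klf9 was below WT in all 12 groups where it was counted, Ddit4 in all 9, Tsc22d3 in all 12 and Sgk1 in 12 of 13. In the GFP- sort, with 5 such groups, the same held for all 4 groups where Klf9, Tsc22d3 and Sgk1 were counted and all 3 for Ddit4. Direction alone is not rare, since 360 of the 5131 genes counted in all 7 named GFP+ classes (7.02%) were below 0 in every class.

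**Figure D1:**
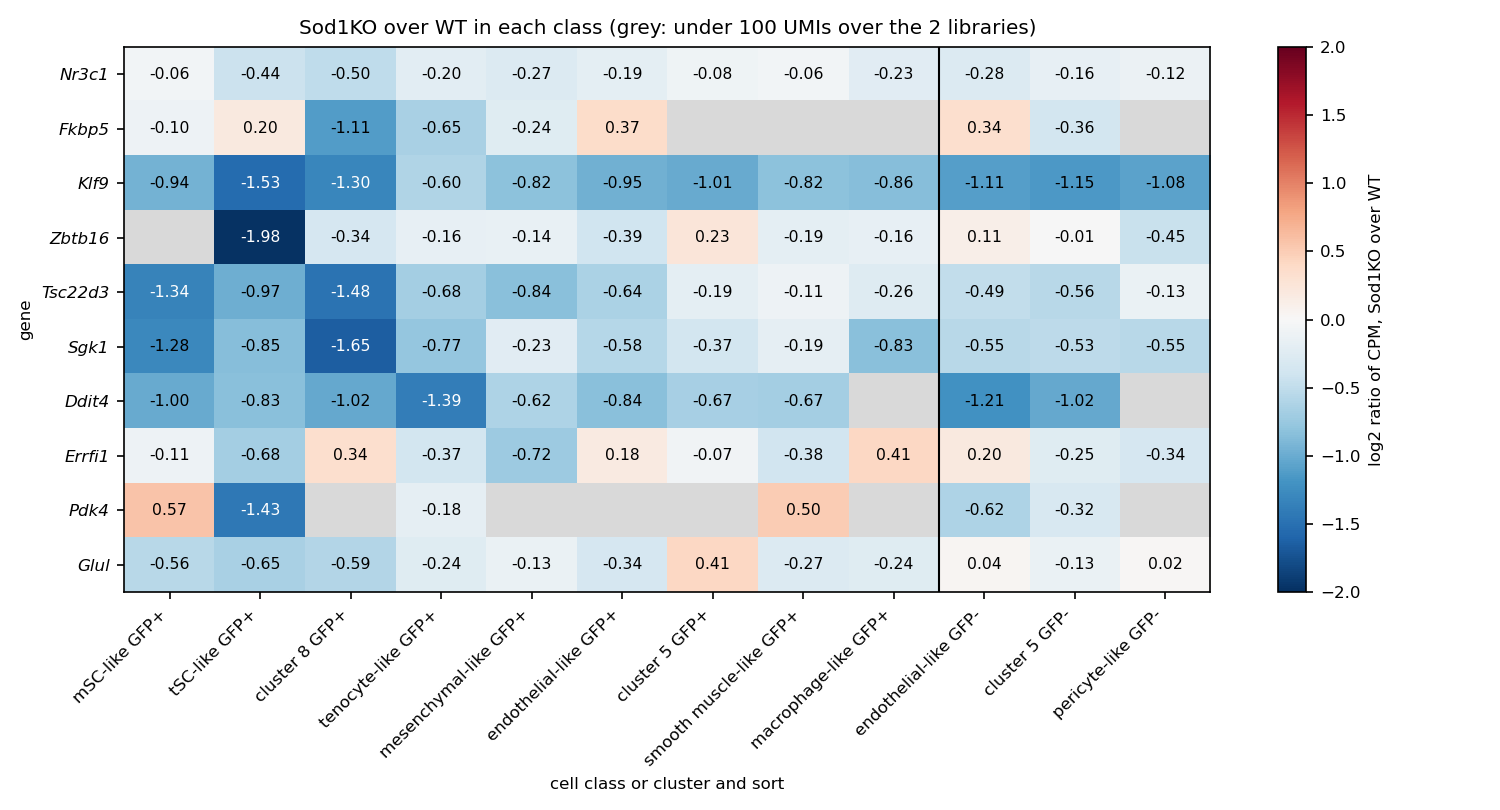
Log2 ratio of the level in CPM, Sod1KO over WT, for the 10 genes (rows) in 12 of the groups compared (columns), with GFP+ left and GFP- right of the vertical line. Blue is lower and red is higher in Sod1KO, and grey cells had under 100 UMIs over the 2 libraries. The rows of Klf9 and Ddit4 are blue in every column shown where they were counted, from −0.60 to −1.53 and from −0.62 to −1.39 (clusters 6 and 16 of GFP+, with Klf9 at −0.33 and −0.49, are not drawn), while Errfi1 and Pdk4 have both colours.

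The number of the 10 genes called lower differed between classes. In tSC-like cells 8 of 10 counted genes were lower, against a background of 11.2% of 10299 genes, and the median log2 ratio of the 10 was −0.84 against −0.02 over all genes. In mSC-like cells 4 of 9 were lower (background 2.66%), with a median of −0.56 against −0.03. In cluster 8 it was 6 of 9 (6.17%), with a median of −1.02 against 0.01. The mSC markers of cluster 8 summed to 17910 CPM in WT and 8781 in Sod1KO and its perineurial markers to 3529 and 2983. Its mesenchymal markers summed to 13010 and 10730. The part of these markers in its values was not tested. The other GFP+ classes had 5 of 10 in tenocyte-like (2.03%), 4 of 9 in mesenchymal-like (4.16%), 3 of 9 in endothelial-like (2.06%), 2 of 9 in smooth muscle-like (1.97%) and 2 of 7 in macrophage-like cells (3.66%). In the GFP- sort it was 3 of 10 in endothelial-like cells (4.29%), 1 of 7 in pericyte-like cells (6.94%) and 2 of 10 in cluster 5 (3.56%). In these 11 groups none of the 10 genes was called higher. The background of genes called higher was 2.58% in mSC-like, 8.17% in tSC-like, 3.58% in tenocyte-like, 5.36% in mesenchymal-like, 4.21% in endothelial-like, 2.94% in smooth muscle-like and 4.84% in macrophage-like cells and 8.48% in cluster 8 of GFP+, and 8.52%, 6.74% and 8.11% in the 3 GFP- groups in the order above. Of the remaining GFP+ clusters, cluster 5 had 2 of 8 lower (3.74%), cluster 6 had 1 of 8 (1.57%) and cluster 9 had 1 of 1 (10.5%). Cluster 16 had 2 of 9 lower (2.16%) and Errfi1 higher at a log2 ratio of 0.67 (2.41%), and cluster 23 had 2 of 7 lower (5.52%) and Glul higher at 0.62 (3.56%). Cluster 9 of GFP- had 4 of 5 lower, but there 35.7% of all genes were. Over all cells without regard to class, 4 of 10 genes were lower in GFP+ (5.99%) and 3 lower and 1 higher in GFP- (6.27% and 18%). With a fold of 2, 3 genes were lower in tSC-like cells (3.9%), 1 in tenocyte-like (0.376%) and 0 in endothelial-like (0.235%), mesenchymal-like (0.992%), smooth muscle-like (0.371%) and macrophage-like cells of GFP+ (0.476%). In mSC-like cells Tsc22d3, Sgk1 and Ddit4 were lower by that fold (0.365%), and in cluster 8 Tsc22d3, Klf9, Ddit4, Fkbp5 and Sgk1 (1.68%). In the GFP- sort Klf9 and Ddit4 were in endothelial-like cells (0.668%) and cluster 5 (0.393%), and Klf9 in pericyte-like cells (0.852%). With a fold of 5/4, 6 genes were lower in endothelial-like cells of GFP+ (11.4%), 5 in those of GFP- (17.7%) and 4 in pericyte-like cells of GFP- (22.2%). The rule that chose the genes used these contrasts, so nothing is read from the counts beyond their description.

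The receptor gene Nr3c1 was detected in every class. Among the 7 named classes of WT GFP+ its level ran from 271 CPM in endothelial-like cells through 227 in mesenchymal-like, 196 in tenocyte-like, 187 in tSC-like, 157 in macrophage-like and 141 in mSC-like cells to 89.6 in smooth muscle-like cells. In Sod1KO GFP+ the same classes had 237, 188, 170, 138, 134, 136 and 86.1 CPM. The receptor message was thus slightly lower in each of the 7 classes, by a median log2 ratio of −0.20, and in none of the 7 by 1.5-fold. The largest difference among them was in tSC-like cells, at −0.44 (95% interval −0.55 to −0.33), and in mSC-like cells it was −0.06 (−0.21 to 0.09). The tSC-like class was mostly cluster 15 in WT and cluster 7 in Sod1KO. Nr3c1 was at −0.18 (−0.36 to −0.01) within cluster 15 and −0.20 (−0.51 to 0.11) within cluster 7. In cluster 33, with 28 and 30 cells, it was −0.82 (−1.43 to −0.23). All intervals here are exact and cover counting error only.

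Fkbp5 encodes a co-chaperone of the receptor complex that lowers hormone binding and is itself induced by the hormone. Among the 7 named GFP+ classes it was highest in mesenchymal-like cells, at 94.3 CPM in WT and 79.8 in Sod1KO, and lowest in smooth muscle-like cells, at 3.52 and 3.03. Fkbp5 did not have 1 direction across classes. In tenocyte-like cells it was 37.4 in WT and 23.8 in Sod1KO, a log2 ratio of −0.65 (−0.82 to −0.48), and in cluster 8 it was 154 and 71.3, at −1.11 (−1.27 to −0.96). In endothelial-like cells it was 20.8 and 27.0 in the GFP+ sort (0.37, −0.02 to 0.77) and 8.79 and 11.1 in the GFP- sort (0.34, −0.07 to 0.76), so both intervals included 0. In mSC-like cells it had only 69 and 40 UMIs.

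Klf9, a zinc finger transcription factor induced by the receptor, was below WT in all 12 GFP+ groups of 50 or more cells where it was counted, with log2 ratios from −1.53 to −0.33. In mSC-like cells it was 677 CPM in WT GFP+ (4794 UMIs in 1075 cells) and 352 in Sod1KO GFP+ (1553 UMIs in 658 cells), a log2 ratio of −0.94 (−1.03 to −0.86). In tSC-like cells it was 498 and 172, at −1.53 (−1.62 to −1.45). In endothelial-like cells it was 265 and 137 in the GFP+ sort and 243 and 113 in the GFP- sort. Both WT endothelial values therefore lay above both Sod1KO values, and the sorts of a genotype were closer to each other than the genotypes were. The same order held in mesenchymal-like cells, at 271 and 341 in the WT libraries and 154 and 160 in the Sod1KO libraries, though the WT GFP- class there had only 37 cells. It also held in cluster 5 (321 and 326 against 159 and 147). In smooth muscle-like cells the WT libraries had 503 and 562 and the Sod1KO libraries 284 and 369, with 36 cells in WT GFP-. Of the 7 named GFP+ classes, macrophage-like cells had the lowest Klf9 levels, at 41.9 and 23.2 in the GFP+ sort.

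**Figure D2:**
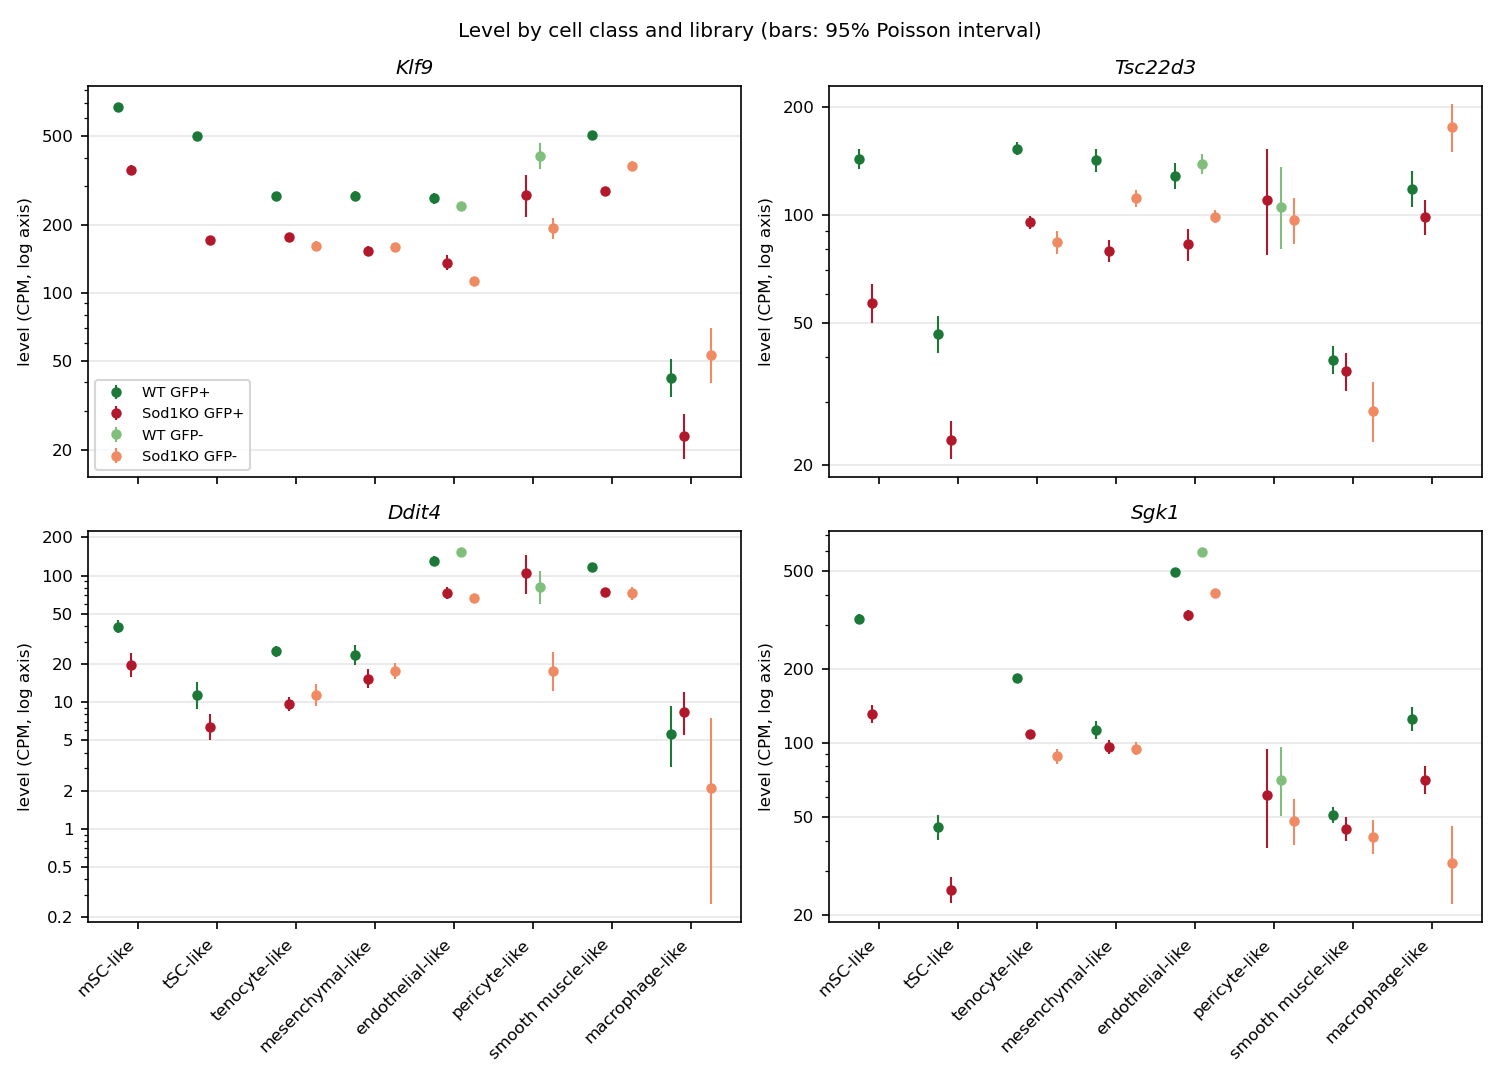
Level in CPM (log axis) of Klf9, Tsc22d3, Ddit4 and Sgk1 in 8 classes, with 1 point per library that held 50 or more cells of the class and bars for the 95% Poisson interval. Klf9 in mSC-like cells falls from 677 in WT GFP+ to 352 in Sod1KO GFP+, and in endothelial-like cells both WT points (265 and 243) lie above both Sod1KO points (137 and 113).

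The genes lower in Sod1KO did not all peak in the same class among the 7 named classes of WT GFP+. Klf9 was highest in mSC-like and Sgk1 in endothelial-like cells. Tsc22d3 was highest in tenocyte-like cells (153 CPM), with intervals that overlapped those of mSC-like (143) and mesenchymal-like cells (142). Ddit4 was highest in endothelial-like cells (120 to 141), which overlapped smooth muscle-like cells (112 to 124). The top class of Tsc22d3 and of Ddit4 was thus not resolved. In WT GFP+, the Klf9 levels of smooth muscle-like (503) and tSC-like cells (498) had overlapping intervals, as did those of mesenchymal-like (271), tenocyte-like (269) and endothelial-like cells (265). Over the 57 points made by each class or cluster and library with 50 or more cells, log2(CPM + 1) of Tsc22d3 had a Pearson r of 0.01 with Klf9, 0.11 with Ddit4 and 0.23 with Sgk1. The member whose pattern was most like it was Nr3c1, at 0.54. Among 17287 genes the closest were Fcgrt (0.65), Itm2b (0.65), Sult1a1 (0.60), Vat1 (0.60) and Ccpg1 (0.60). The points share 4 libraries and their depth, so these values are descriptions.

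Tsc22d3, which encodes the glucocorticoid-induced leucine zipper protein GILZ, an anti-inflammatory mediator of the hormone, was called lower in the Schwann-like, tenocyte-like, mesenchymal-like and endothelial-like cells of the GFP+ sort. In mSC-like cells it was 143 CPM in WT (1013 UMIs) and 56.6 in Sod1KO (250 UMIs), which is −1.34 on the log2 scale (−1.54 to −1.13). In tSC-like cells it was 46.4 and 23.6, at −0.97 (−1.22 to −0.73). In tenocyte-like cells it was 153 and 95.3, and in mesenchymal-like cells 142 and 79.3. Its log2 ratio was −0.61 in mesenchymal-like cluster 4, −1.87 in cluster 11 and −0.39 (−0.86 to 0.07) in cluster 20. Smooth muscle-like cells had 39.4 and 36.6, a log2 ratio of −0.11 (−0.33 to 0.11), and the interval included 0. In macrophage-like cells it was 118 and 98.5, at −0.26 (−0.50 to −0.03).

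Zbtb16 encodes PLZF, a zinc finger repressor whose gene responds strongly to glucocorticoids in many tissues. Its level in WT GFP+ was 89.5 CPM in mesenchymal-like and 64.5 in tenocyte-like cells and only 2.12 in mSC-like cells, where 15 UMIs were found. The log2 ratio was between −0.14 and −0.39 in 5 of the 6 named GFP+ classes where it could be given from 100 or more UMIs, and −1.98 (−2.43 to −1.55) in tSC-like cells, at 23.1 CPM in WT and 5.85 in Sod1KO. The tSC-like value comes with a different make-up of the class. Of the tSC-like cells, 274 of 387 were in cluster 15 in WT and 640 of 888 in cluster 7 in Sod1KO. Within cluster 15 Zbtb16 was 25.2 and 17.3 CPM (−0.54, −1.11 to −0.01), and within cluster 7 it was 7.80 and 2.84 from 5 and 23 UMIs (−1.46, −2.88 to 0.30). Cluster 33 had 5 and 0 UMIs, which gave −0.80 with 0 set to the floor of 3 UMIs. The mean over clusters 7, 15 and 33 was −0.93. The genes whose level over the 57 points was most like that of Zbtb16 were Airn (r of 0.81), Fam117a (0.77) and Taf4b (0.77).

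The other genes of the tSC-like class were followed within the same clusters. Klf9 was lower by about the same amount in each, at 431 and 170 CPM in cluster 7 (−1.34), 516 and 194 in cluster 15 (−1.41) and 369 and 181 in cluster 33 (−1.03). Tsc22d3 was at −0.92 in cluster 7, −0.41 in cluster 15 and −1.12 in cluster 33, with all 3 intervals below 0. Sgk1 differed less evenly, at −0.15 (−0.84 to 0.64) in cluster 7 and −0.77 (−1.20 to −0.36) in cluster 15. Glul, called lower in the class as a whole, had intervals that included 0 in all 3 clusters, at −0.50, −0.17 and −0.34. Pdk4 was at −1.82 (−3.07 to −0.37) in cluster 7 and −0.42 (−1.32 to 0.41) in cluster 15. Errfi1 had opposite signs, 0.27 (−0.70 to 1.43) in cluster 7 and −0.81 (−1.36 to −0.30) in cluster 15. The macrophage marker list summed to 4685 CPM in WT and 437 in Sod1KO tSC-like cells, almost all of it Lyz2, which held 5287 of 5294 CPM in cluster 15 of WT. The erythroid list of 7 hemoglobin and other red cell genes summed to 20.5 and 1589 CPM. It was also higher in Sod1KO in macrophage-like (12.4 and 6124), mesenchymal-like (11.1 and 1333) and endothelial-like cells of GFP+ (2515 and 12600) and in endothelial-like cells of GFP- (2941 and 7076). The macrophage list was 17.2 and 14.1 CPM in mSC-like cells. The erythroid list was 33.9 and 35.4 in mSC-like cells, in smooth muscle-like cells 13.2 and 14.4, in tenocyte-like cells 9.39 and 12.4 and in pericyte-like cells of GFP- 7116 and 6736. The part of these markers in the results of those classes was not tested.

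**Figure D3:**
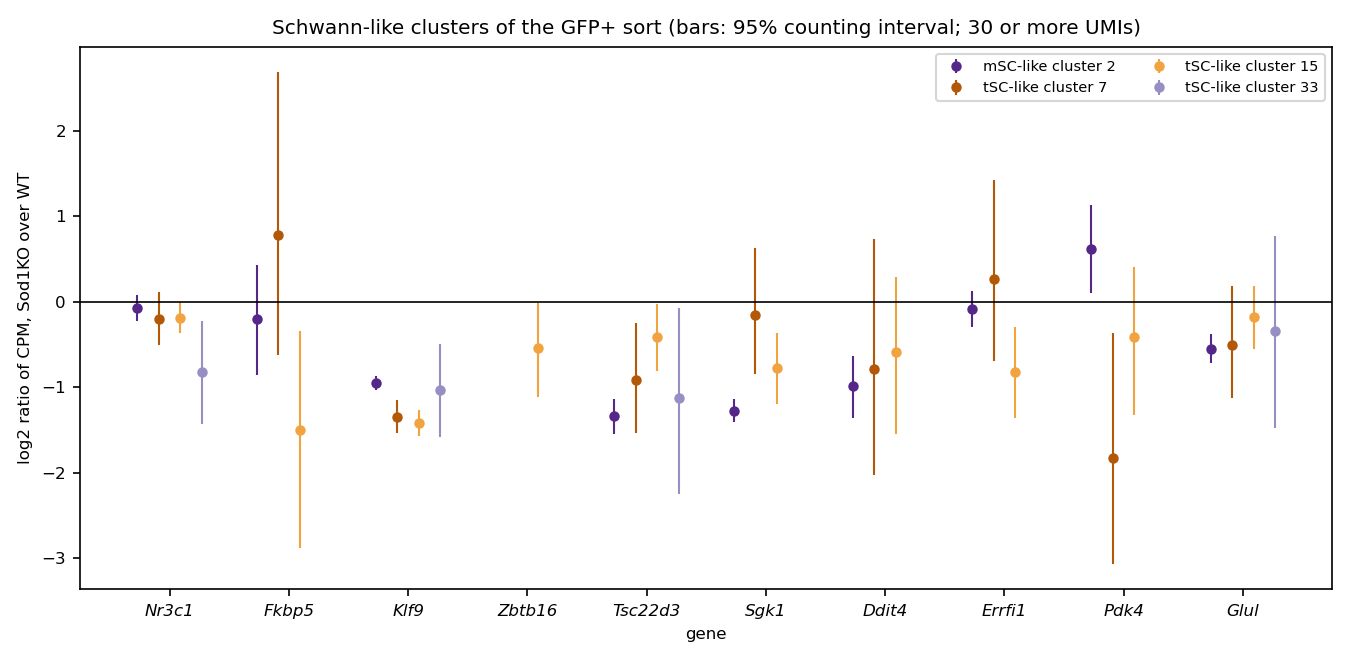
Log2 ratio of CPM, Sod1KO over WT, for the 10 genes (x axis) in mSC-like cluster 2 and tSC-like clusters 7, 15 and 33 of the GFP+ sort, where a cluster held 30 or more UMIs of the gene, with bars for the 95% counting interval. All 4 Klf9 points lie well below 0, from −0.95 to −1.41, and the tSC-like points of Fkbp5 and Errfi1 lie on both sides of 0.

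Of the signalling genes, Sgk1 encodes a kinase activated by growth factor signals that regulates ion channels and cell survival. In mSC-like cells it was 319 CPM in WT and 131 in Sod1KO, a log2 ratio of −1.28 (−1.42 to −1.15), and in cluster 8 it was 147 and 47.1, at −1.65 (−1.83 to −1.47). Among the 7 named classes it was highest in endothelial-like cells, at 492 and 594 in the WT libraries and 330 and 406 in the Sod1KO libraries. In smooth muscle-like cells it was 50.9 and 44.7 in the GFP+ sort (−0.19, −0.38 to 0.01), where the interval reached 0. In tSC-like cells of WT, 1 cell held 10.3% of the 283 Sgk1 UMIs.

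Ddit4 encodes REDD1, an inhibitor of the growth kinase complex mTORC1 that also responds to hypoxia and energy stress. It was called lower in every GFP+ and GFP- group where it was counted, though within the tSC-like clusters compared every interval included 0. In mSC-like cells it was 39.5 CPM in WT and 19.7 in Sod1KO (interval of the log2 ratio −1.37 to −0.65), and in tenocyte-like cells 25.3 and 9.65 (−1.39, −1.63 to −1.15). Endothelial-like cells had 131 and 152 in the WT libraries and 73.0 and 66.1 in the Sod1KO libraries. Macrophage-like cells had only 14 and 27 UMIs, at 5.59 and 8.34 CPM. On the 10-gene hypoxia list, 0 of 4 counted genes were called in mSC-like cells of GFP+ (2.66% lower, 2.58% higher over all genes). In GFP+ it was also 0 of 8 in endothelial-like (2.06% and 4.21%) and 0 of 7 in smooth muscle-like cells (1.97% and 2.94%). Counts of 0 are near these shares. In tSC-like cells 2 of 5 were lower and 1 higher (11.2% and 8.17% over all genes), and in mesenchymal-like cells 1 of 7 was lower and 1 higher (4.16% and 5.36%). Higher were 1 of 8 in tenocyte-like (3.58%), 1 of 4 in macrophage-like (4.84%) and 3 of 9 in GFP- endothelial-like cells (8.52%). Among its most abundant genes, Ndrg1 was 2190.5 and 2073 CPM in mSC-like cells, P4ha1 527 and 523 in tenocyte-like cells and Slc2a1 27.1 and 35.2 in GFP+ endothelial-like cells.

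Errfi1 encodes MIG6, a feedback inhibitor of the EGF receptor. Its level was highest in the few satellite-like cells, at 2638 CPM in WT GFP+ (37 cells) and 1864 in Sod1KO GFP+ (58 cells). In mesenchymal-like cells of the GFP+ sort it was 469 and 284, a log2 ratio of −0.72 (−0.80 to −0.64), but in the GFP- sort 220 and 212. It was thus lower in 1 sort and nearly equal in the other. The class also differed in make-up, since cluster 20, with the highest Errfi1 level of its 3 clusters compared (765 CPM in WT), held 67 of 267 WT cells and 82 of 677 Sod1KO cells. Within the clusters the log2 ratio was −0.68 in cluster 4, −0.47 in cluster 11 and −0.19 in cluster 20. In macrophage-like cells it was 78.7 and 105 (0.41, 0.15 to 0.67). In tSC-like cells of WT, 1 cell held 19.2% of the 182 UMIs.

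The metabolic genes were Pdk4, a kinase that shuts pyruvate out of the mitochondrial oxidation path in fasting, and Glul, glutamine synthetase. Pdk4 was at most 14.3 CPM in the 7 named GFP+ classes, and it was 191 and 90.8 CPM in satellite-like cells (92 and 58 UMIs) and 9.04 and 12.8 in smooth muscle-like cells (113 and 93 UMIs). In mSC-like cells it was 9.60 and 14.3 CPM (0.57, 0.05 to 1.09) and in tSC-like cells 10.6 and 3.93 (−1.43, −2.02 to −0.85). Those opposite directions rest on 131 and 109 UMIs. Among the 7 named GFP+ classes, Glul was highest in macrophage-like (206 and 175) and endothelial-like cells (191 and 151 in GFP+, 107 and 110 in GFP-). It was 136 and 92.7 in mSC-like cells (−0.56, −0.73 to −0.39) and 44.6 and 28.4 in tSC-like cells (−0.65, −0.89 to −0.41). The list of fasting and PPAR targets had 0 of 10 genes called in mSC-like cells (2.66% lower and 2.58% higher over all genes). In GFP+ endothelial-like cells 3 of 10 were lower (2.06%), among them the lipid carrier Fabp4 (17703 and 11106 CPM) and the fatty acid transporter Cd36 (1738 and 1039). Hadha, a beta-oxidation enzyme, was 79.2 and 70.7 there. In tSC-like cells 3 of 11 were lower and 1 higher (11.2% and 8.17%).

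In mSC-like cells the shares of cells with a UMI of Klf9, Tsc22d3 and Sgk1 were lower in Sod1KO, as their levels were. After each cell was thinned to 1000 UMIs, Klf9 was found in 43.0% of mSC-like cells in WT GFP+ (40.0 to 46.0) and 23.7% in Sod1KO GFP+ (20.5 to 27.2). Tsc22d3 was found in 12.7% (10.7 to 14.8) and 4.71% (3.22 to 6.62), and Sgk1 in 21.9% (19.4 to 24.5) and 10.0% (7.84 to 12.6). Unthinned, the shares were 87.1% and 72.2% for Klf9, 44.8% and 26.9% for Tsc22d3 and 61.0% and 37.2% for Sgk1. The lowest Klf9 share among the 7 named GFP+ classes was that of macrophage-like cells, at 3.88% in WT and 1.87% in Sod1KO, and for Sgk1 that of tSC-like cells, at 3.63% and 1.81%. The mSC-like shares were above these in both libraries. Median UMIs per cell before thinning were 6237 and 6118 in mSC-like, 17443 and 13924 in macrophage-like and 12360 and 9542 in tSC-like cells. Some shares differed in the other direction than the level, all with overlapping intervals. Errfi1, with the higher level in Sod1KO in macrophage-like cells, was found there in 10.1% of WT and 8.41% of Sod1KO cells, but in 11.9% and 19.0% after thinning to 2000 UMIs. Glul, with the lower level in Sod1KO, was found in 3.42% and 5.87% of smooth muscle-like and in 11.8% and 13.2% of endothelial-like cells of GFP+. In tSC-like cells Ddit4 was found in 5 of 386 and 6 of 886 cells, too few to compare.

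**Figure D4:**
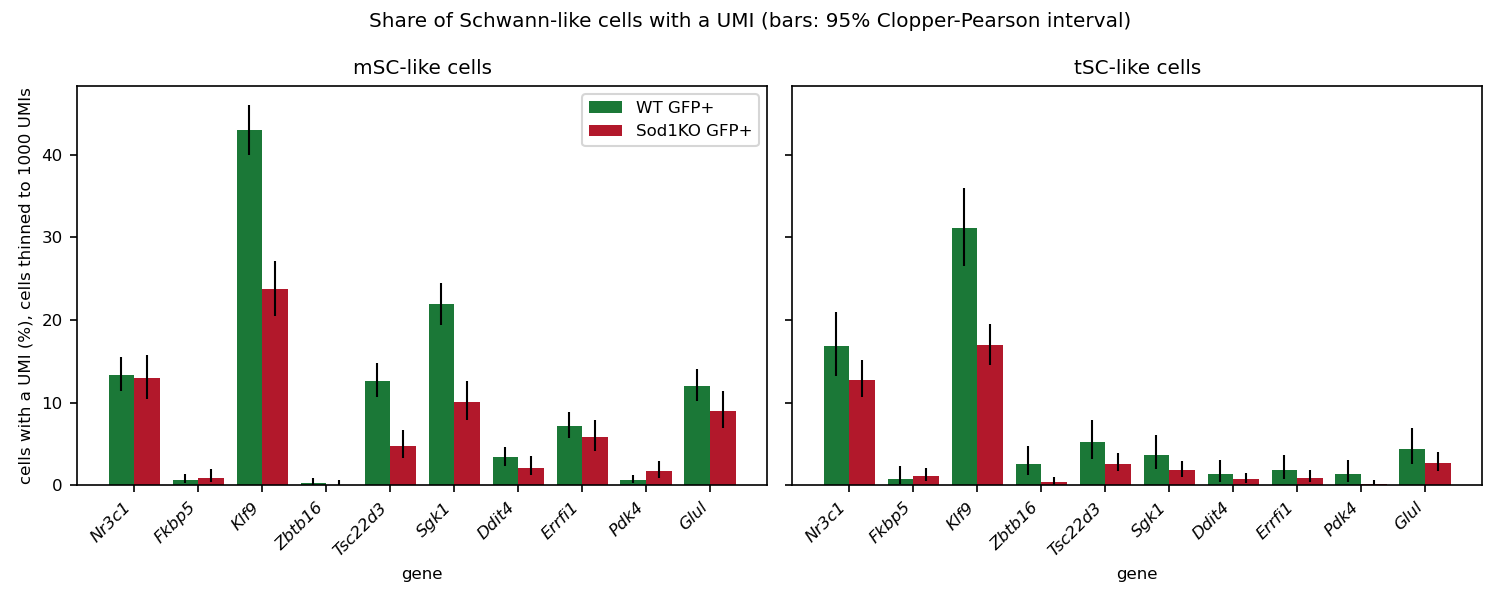
Share of cells with a UMI of each of the 10 genes (x axis) after thinning to 1000 UMIs per cell, in mSC-like (left) and tSC-like cells (right) of the GFP+ sort, with bars for the 95% Clopper-Pearson interval. In mSC-like cells the Klf9 bars are at 43.0% and 23.7% and the Tsc22d3 bars at 12.7% and 4.71%, and the Nr3c1 bars have overlapping intervals.

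Set against all genes, Klf9, Sgk1 and Tsc22d3 stood at the low end, but they were chosen with these contrasts known. Their ranks and the shares below therefore only describe that choice. Of the 5131 genes counted in all 7 named GFP+ classes, the median log2 ratio over the classes put Klf9 at rank 2 from the lowest (−0.86), Sgk1 at rank 3 (−0.77) and Tsc22d3 at rank 6 (−0.68). Errfi1 was at rank 53 (−0.37), Glul at rank 193 (−0.27) and Nr3c1 at rank 441 (−0.20). Klf9 and the predicted gene Gm8797 were the only ones called lower in all 7 classes, 2 of 5131 (0.039%), and Tsc22d3 was 1 of the 5 genes lower in 5 or more classes (0.0974%). The other genes in these counts were Mt1 (6 classes) and Mt2 (5), the metallothionein genes, which bind zinc and respond to glucocorticoids and metals, at ranks 4 and 5. Gm8797, Mt1 and Mt2 are likewise named after their values were seen, although Mt1 and Mt2 were on the fixed list of other responsive genes.

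**Figure D5:**
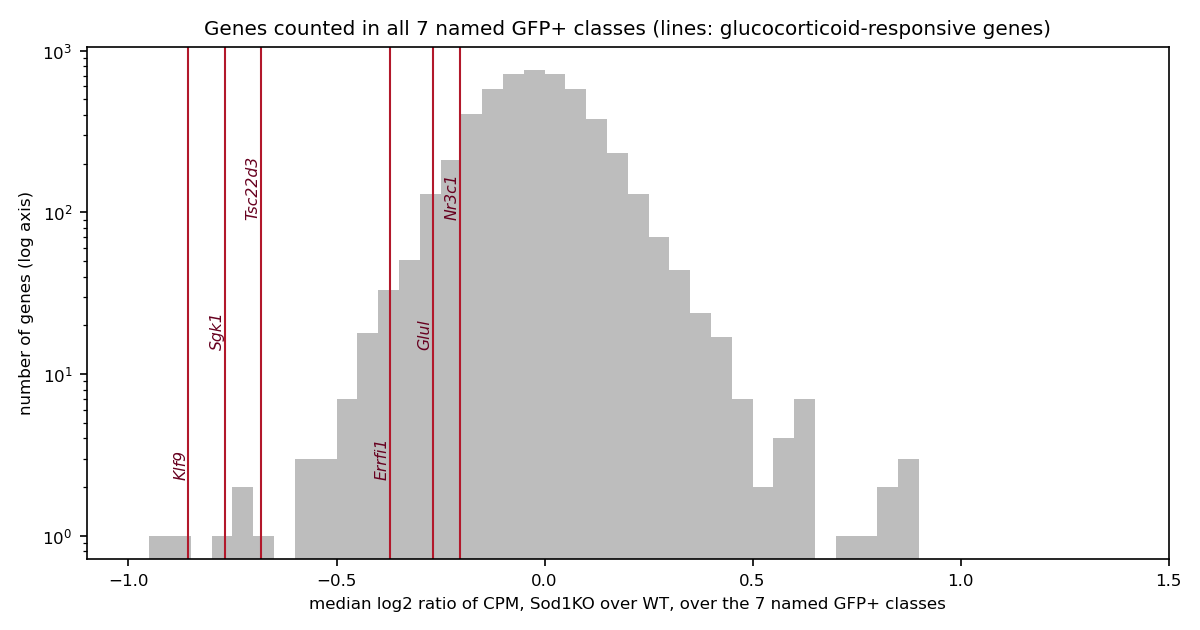
Number of genes (log axis) by their median log2 ratio of CPM, Sod1KO over WT, over the 7 named GFP+ classes, for the 5131 genes counted in all of them. Red lines mark the 6 glucocorticoid-responsive genes among them, which were chosen with these contrasts known. Klf9 at −0.86, Sgk1 at −0.77 and Tsc22d3 at −0.68 lie outside the bulk of the genes and Nr3c1 at −0.20 within it.

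The order between both sorts was examined in the endothelial-like cells, which had 303 or more cells in each of the 4 libraries. Of the 9 genes counted in both sorts, 5 had both Sod1KO levels below both WT levels, which held for 26.9% of 8465 genes, and 2, Klf9 and Ddit4, were called lower in both sorts (background 0.591%). The 5 were Klf9, Ddit4, Tsc22d3 (128 and 138 against 82.6 and 98.8), Sgk1 and Nr3c1 (271 and 306 against 237 and 253). In cluster 5 the counts were 6 of 8 (33%) and 2 of 8 (0.368%), the 2 again Klf9 and Ddit4. With 52 WT cells or fewer in the GFP- sort, they were 5 of 9 (16.4%) and 3 of 9 (0.905%) in mesenchymal-like, 4 of 8 (25.8%) and 2 of 8 (0.5%) in smooth muscle-like and 3 of 4 (21%) and 0 of 4 (0.617%) in pericyte-like cells. Both sorts came from the same pools of mice and are not independent samples of a genotype.

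The wider list of 30 other glucocorticoid-responsive genes, chosen with the same data in view, had members in both directions. In mSC-like cells 4 of 21 counted genes were lower and 2 higher (background 2.66% and 2.58%), with a median log2 ratio of 0.07. In tSC-like cells 7 of 21 were lower and 3 higher (11.2% and 8.17%), and in tenocyte-like cells 5 of 25 and 0 (2.03% and 3.58%). Lower in both Schwann-like classes were Mt1 (5132 and 3098 CPM in mSC-like cells), Sult1a1, a sulfotransferase (143 and 80.4), and Txnip, a thioredoxin inhibitor (224 and 134), and higher in both was the arrestin gene Arrdc3 (9.88 and 16.5). The phosphatase gene Dusp1, which dampens MAP kinase signalling, was 157 and 197 in mSC-like cells but 746 and 481 in tenocyte-like cells. Nfkbia, the NF-κB inhibitor, was 221 and 154 in mSC-like and 364 and 217 in tenocyte-like cells. Mt1 did not keep its direction between sorts, with 749 and 414 in endothelial-like cells of GFP+ and 91.3 and 142 in those of GFP-.

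The list of receptor partners and steroid enzymes had few genes called, near the share over all genes in most classes. Of 13 to 15 counted genes, 0 were called in 6 of the 7 named GFP+ classes and 1 was lower in tSC-like cells (11.2% over all genes). In those 6 classes 1.97% to 4.16% of all genes were lower and 2.58% to 5.36% higher. For the same list in the GFP- sort, 1 was higher in endothelial-like (8.52%) and 1 lower and 2 higher in pericyte-like cells (6.94% and 6.74%). The chaperone Hsp90ab1 was 1489 and 1418 CPM in mSC-like cells, Hsp90aa1 320 and 313 and the corepressor Ncor1 208 and 196. Circadian clock genes, many of which follow the daily hormone rhythm, had 1 of 13 counted genes lower in mSC-like (2.66% over all genes), 2 of 11 in tSC-like (11.2%) and 3 of 14 in mesenchymal-like cells (4.16%). In any named class 0 were higher, against 2.58% to 8.17% of all genes in the 7 named GFP+ classes. Clock was 161 and 193 CPM in mSC-like cells and 103 and 101 in tSC-like cells. Nr1d1 was 20.2 and 22.7 in mSC-like cells and 56.0 and 33.8 in tSC-like cells. Bhlhe40, a repressor in the clock, was 432 and 265 in tenocyte-like cells.

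Immediate early genes, which rise during tissue digestion, and heat shock genes were also listed. Of 15 genes, 1 was lower and 1 higher in mSC-like cells (2.66% and 2.58% over all genes), and 4 were lower and 4 higher in the tSC-like class (11.2% and 8.17%). Nr4a1 was lower in both, at 1167 and 643 CPM in mSC-like cells and 447 and 225 in tSC-like ones. The heat shock gene Hspa1b was higher in both, at 23.7 and 46.5 in the former and 22.8 and 72.1 in the latter. In tenocyte-like cells 4 were lower and 0 higher (2.03% and 3.58%). The most abundant were Fos (6889.5 and 5397 CPM in mSC-like cells), Jun (2516 and 2644) and Junb (1970 and 1831). Their part in the results for the glucocorticoid-responsive genes was not tested. The 5 cycling genes had too few UMIs to be counted in mSC-like cells, and over all GFP+ cells all 5 were higher in Sod1KO (background 6.38%), as were both counted ones in tSC-like cells. In macrophage-like cells Mki67 was 95.9 and 112 CPM, Top2a 67.1 and 88.6 and Birc5 25.6 and 38.9.

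Classes with fewer cells were compared after the data were seen, with 30 or more cells in both libraries. In perineurial-like cells of GFP+ (42 and 90 cells) 5 of 7 counted genes were lower (background 7.46%), led by Ddit4 at 250.4 and 68.3 CPM and Tsc22d3 at 307 and 118, and it was the only class compared in which Nr3c1 was called lower, at 432 and 284. In satellite-like cells (37 and 58) it was 3 of 6 (8.71%), Klf9 at 409 and 235, Sgk1 at 261 and 150 and Pdk4. In pericyte-like cells of GFP+ (41 and 50) it was 0 of 4 (8.66%), with Klf9 at 326 and 272. There, from under 100 UMIs, Tsc22d3 was 110 and 110, Ddit4 62.6 and 104 and Sgk1 52.6 and 61.2. The intervals of these log2 ratios included 0, and 1 Sod1KO cell held 50% of the 34 Ddit4 UMIs. In the GFP- sort, mesenchymal-like cells (37 and 724) had 3 of 9 lower (8.71%), and smooth muscle-like cells (36 and 183) had 4 of 8 lower (5.91%) and Glul higher at 37.1 and 58.5 (6.91%).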

How the data were processed

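Single-cell 3′ libraries (10x Genomics, v3 chemistry) of GFP+ and GFP- muscle cells were compared. The authors deposited raw UMI counts for each gene in each cell, from Cell Ranger (7.1.0 per the labels and file headers, while the methods name a later version), with the reference given as mm10 in the notes and as both GRCm39 and GRCm38 in the methods. Free RNA and doublets remain in these counts. Cells needed over 200 genes and under 10% mitochondrial UMIs. Doublets were removed by a simulated-doublet score, 0.8% per 1000 barcodes (210, 366, 27 and 287 cells). All libraries were clustered together without integration (2000 variable genes, 30 components, 20 neighbours, Leiden resolution 1, scanpy 1.11.5, leidenalg 0.10.2). Klf9, Sgk1 and Errfi1 were among the clustering genes. Clusters were named from 19 marker lists (a marker above 20 CPM and 2 times the mean of other clusters, at least 3 markers and 50% of a list, no other list above 60%), with limits set after a look at the clusters. Unnamed clusters held 25.7% to 58.2% of a library's cells.

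UMIs were summed per class and library and scaled to CPM. Ratios against 0 used 3 UMIs as the floor, with none given where both libraries were at or under that. Intervals (95%) were Poisson for levels, conditional binomial for ratios and Clopper-Pearson for shares, in Python 3.11.15 with scipy 1.17.1. The ratio and call were tested on simulated data. The genes and lists were chosen with earlier results of these data known. Named were all 10 genes, the 3 most abundant genes of each list, genes called alike in both Schwann-like classes, and the genes most like Tsc22d3 (5) and Zbtb16 (3). Alternatives covered cell filter, doublets, free RNA, scaling, clustering, cluster weighting, minimum UMIs, fold and thinning.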

Additional observations from a re-analysis of the deposited data

Results flagged for a closer look

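Errfi1 and Pdk4 had opposite directions in different classes of 1 sort, with counting intervals on opposite sides of 0. The difference between classes was not tested, since each class has 1 library per genotype. In the GFP+ sort the log2 ratio of Errfi1, Sod1KO over WT, was 0.41 in macrophage-like cells and −0.72 in mesenchymal-like cells. In the GFP- sort it was 0.20 in endothelial-like cells and −0.34 in pericyte-like cells. The log2 ratio of Pdk4 in the GFP+ sort was 0.57 in mSC-like cells, 0.50 in smooth muscle-like cells and −1.43 in tSC-like cells. The tSC-like class was held mostly by a different cluster in each genotype. Within the 3 mesenchymal-like clusters compared, Errfi1 was at −0.68, −0.47 and −0.19.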

How the results depend on the processing

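No paired analysis was possible because each group is 1 library and the labels carry no replicate numbers. Of 720 repeats of single log2 ratios under other settings, 674 stayed within the counting interval, 44 moved outside it and 2 reversed. The settings differed in this. The mean over clusters moved 18 of 80 and reversed 1, and the mean of per-cell CPM moved 15 of 80 and reversed 1. The stricter cell filter moved 8 of 80, and the other settings moved 0 to 2 each. Both reversals were Errfi1 in tSC-like cells, at 0.15 as the mean of per-cell CPM and 0.024 as the mean over clusters. With a fold of 2, the number of the 10 genes called lower was 0 in endothelial-like, macrophage-like, mesenchymal-like and smooth muscle-like, 3 in tSC-like and 1 in tenocyte-like cells of GFP+. Still called lower at that fold were Tsc22d3, Sgk1 and Ddit4 in mSC-like cells and Tsc22d3, Klf9, Ddit4, Fkbp5 and Sgk1 in cluster 8. With a fold of 5/4 the number called lower was 6 in endothelial-like GFP+, 5 in endothelial-like GFP- and 4 in pericyte-like GFP- cells. In pericyte-like GFP- cells it was 2 with the mean of per-cell CPM, 2 after clustering without these genes and lists, and 3 with a minimum of 30 UMIs. In macrophage-like cells it was 1 without doublet removal and 1 with free RNA subtracted. With the stricter cell filter it was 4 in smooth muscle-like cells, and as the mean over clusters it was 2 in tenocyte-like cells, where cluster 31 has 27 and 40 cells and Sgk1 falls from −0.77 to −0.00. Depth limits the precision of Fkbp5 and Pdk4 in mSC-like cells, with 69 and 40 and with 68 and 63 UMIs.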
